A study of Mus musculus with 38 samples.

Results

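The comparison described here set mice with myocardial ischemia and reperfusion that were treated with Myriocin (LAD + Myriocin) against sham-operated mice, both 96 h after surgery. The samples were taken by their labels, which gave 7 LAD + Myriocin and 5 sham samples, or 12 of the 38 samples of the series. All 21 target assays of the expression panel entered, and for each the question was whether the treated heart stood at the sham level, above it or below it.

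All mice were young adult males of the C57BL/6N strain. In the LAD + Myriocin mice the left anterior descending coronary artery was tied for 30 min and reopened, and 20 μL of solid lipid nanoparticles loaded with Myriocin (SLN/myr) were injected into the heart muscle at reperfusion. Sham mice had the same operation without closing of the artery, and the sources used here do not state whether they received an injection. Another group at 96 h (LAD) had the ischemia and empty nanoparticles, and mice of the same 3 kinds were taken at 24 h. RNA came from the area at risk of the operated hearts and from left ventricle of the sham hearts, so the groups differed in the piece of tissue as well as in the injury and the drug.

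Myriocin inhibits serine palmitoyltransferase, the enzyme that starts de novo synthesis of sphingolipids, ceramide among them. Ceramide accumulates in the ischemic heart, where it is known as a mediator of cell death and of disturbed lipid handling. A healthy adult heart draws most of its energy from the oxidation of fatty acids, and the injured heart is known to shift away from it and to return to part of the fetal pattern of contractile genes. The panel of the study covered these processes, with myosin heavy chains, nuclear receptors and coactivators of lipid metabolism, regulators of autophagy, proteins of fatty acid uptake and of lipid droplets, and enzymes of mitochondrial fatty acid transport and oxidation. The files used here name each assay only by a plate code and do not pair the codes with genes, so the targets are given below as A01 to A12 and B01 to B09. For the same reason the labelled heart tissue could not be checked against marker genes.

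Each value rested on 1 reference assay measured beside the target, taken here as RPLI, the only control transcript that the study names. Its primer pair is shown because, if that holds, every value of relative expression below contains a reading made with it.
RPLI forward primer: ctcggccgttctcctgta
RPLI reverse primer: gtggaagtggggcttcag

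Expression was read as a threshold cycle (Ct), the PCR cycle at which fluorescence crossed the detection line. Relative expression was obtained by subtracting the target Ct from the reference Ct beside it, which gives a log2 scale on which 1 more unit stands for a 2-fold higher target amount relative to the reference. Of 252 possible combinations of target and sample in the 2 groups, 189 held a value, so an assay was read in 4 to 7 treated and in 3 to 5 sham samples. Target Ct lay between 14.3 and 35.7 with a median of 27.7, and reference Ct between 20.9 and 29.1 with a median of 25.6. The 189 reference readings held only 123 distinct numbers. Of these, 47 occurred in more than 1 combination, and 32 of the 47 stood under different sample numbers in different assays. A sample number therefore need not mean the same mouse in all assays, and assays were tested one at a time. None of the recurring readings stood in both groups. Within 1 assay only B03 held a reading more than once, under LAD + Myriocin replicates 5 and 6, whose target Ct differed by 0.0349 cycles.

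At 96 h the LAD + Myriocin samples differed from sham in 10 of 21 assays (47.6%), by an exact permutation test at an unadjusted p under 0.05. Expression was higher in 7 of them (33.3%) and lower in 3 (14.3%). The mean difference was above 0 in 14 assays and below 0 in 7, with a median of 0.28 on the log2 scale. None of the 10 passed Benjamini-Hochberg adjustment over the 21 assays, where the lowest adjusted p of the exact permutation test was 0.0530, for B03. In 8 of the 10 the test stood at the smallest p that its number of samples allowed. limma, fitted to all 38 samples in 6 groups so that all groups shared one estimate of spread per assay, called 4 assays after adjustment (19.0%), of which A03, A04 and B03 were higher and B08 was lower. Its 95% interval of the difference lay wholly above 0 in 6 assays, wholly below 0 in 3, and within 2-fold of sham on either side in 3. In the other 9 assays the interval reached past 2-fold and included 0, so that the sham level was neither shown nor left. Fitted to the 2 groups alone, 5 assays changed class: A01 and A10 lay above 0, A12 lay below 0, and A08 and B02 met no class. In heart tissue, fewer cells of a type and less RNA per cell cannot be told apart.

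**Figure D1:**
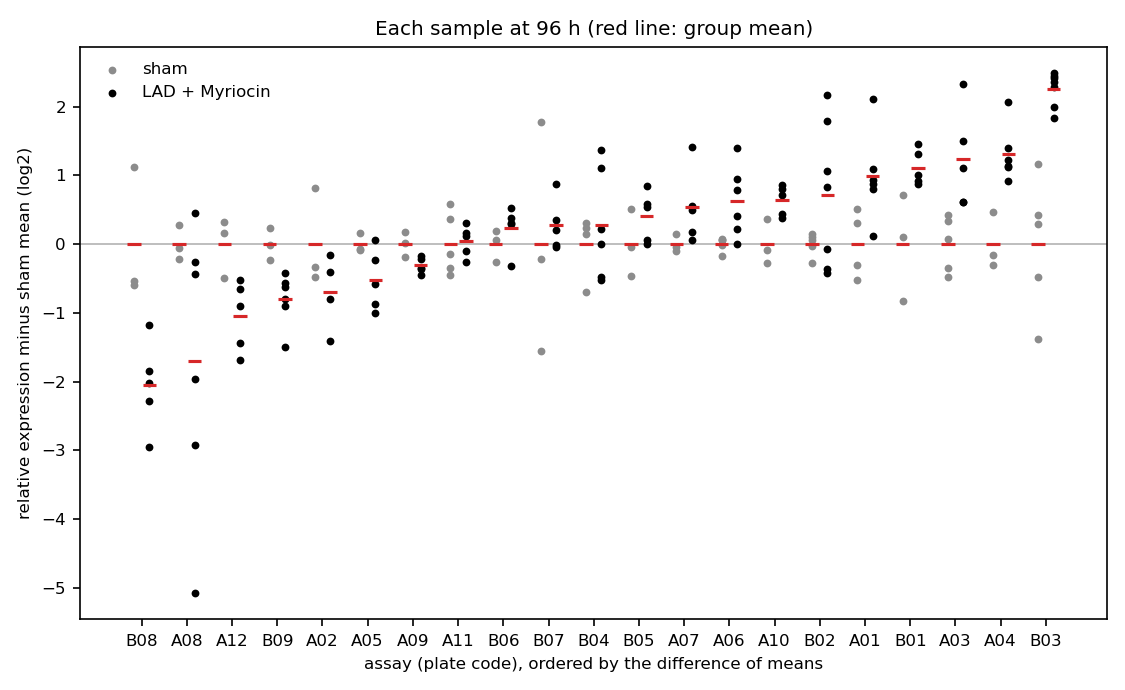
Relative expression of each sample at 96 h minus the sham mean of its assay (log2, y axis) for the 21 assays (x axis, ordered by the difference of means), with grey points for sham, black points for LAD + Myriocin and red lines for group means. The treated samples of B03 all lie above the sham samples, those of B08 all lie below them, and A08 spreads from 0.458 to -5.08.

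B03 showed the largest difference of the panel in this comparison. Its relative expression in the 5 sham samples was -3.11, -2.98, -4.78, -2.24 and -3.88. The 7 LAD + Myriocin samples ran from -1.56 to -0.91 with a median of -1.05, so the lowest treated sample stood above the highest sham sample. The treated mean was -1.14 ± 0.25 (SD, n = 7) and the sham mean -3.40 ± 0.97 (n = 5), a 4.79-fold higher level with a limma interval of 2.87 to 7.98. The difference of 2.26 had an exact permutation p of 0.00253, the smallest that 7 against 5 samples allow, and a limma adjusted p of 1e-05. With the repeated reading counted once (6 against 5 samples) the difference was 2.23 at an exact permutation p of 0.00433.

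A03 and A04 also stood above sham with no overlap of the groups. A03 was -4.56, -5.33, -5.46, -4.91 and -4.64 in sham and -2.65, -3.88, -4.37, -3.48 and -4.37 in LAD + Myriocin. Every treated sample was higher than the highest sham sample, by 0.19 log2 or more, and 1 treated sample was well above the rest. The means were -3.75 ± 0.72 and -4.98 ± 0.40 (n = 5 each), a difference of 1.23 with an exact permutation p of 0.00794 and a limma adjusted p of 0.000682. For A04 the 3 sham samples read -2.24, -1.63 and -2.40, and the 6 treated samples lay between -1.17 and -0.02 with a median of -0.91. The gap between the groups was 0.46 log2, and the mean difference of 1.31 (exact permutation p = 0.0238, limma adjusted p = 0.00575) amounted to 2.48-fold. The treated mean of A04 was -0.76 at 24 h and -0.78 at 96 h. Its sham mean went from -0.95 to -2.09, with 3 samples at each time (limma adjusted p = 0.108). With the sham samples of both times pooled, the difference of A04 was 0.74 (exact permutation p = 0.0584).

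B01 and A10, with 5 treated and 3 sham samples each, were likewise higher in every treated sample than in any sham sample. B01 had relative expression of -6.74, -6.12 and -7.66 in sham and -5.38, -5.97, -5.53, -5.92 and -5.83 in LAD + Myriocin. The difference was 1.11, with a limma interval of 0.21 to 2.01, and the nearest samples of the groups were 0.15 log2 apart. It was 0.70 without sham replicate 3, the lowest of its sham samples. A10 read -4.00, -4.19 and -3.54 in sham against -3.10, -3.20, -3.47, -3.05 and -3.53 after treatment. Here the groups all but touched, at -3.54 and -3.53, and the difference was 0.64. Its limma interval, from 0.798-fold to 3.03-fold, included 1. Both assays had an exact permutation p of 0.0357, the smallest available to them.

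A01 and A06 were higher on average while their groups overlapped. A01 in sham was -4.55, -4.76, -3.93 and -3.73, and the 6 treated samples ran from -4.13 to -2.13 with a median of -3.33. One treated sample lay within the sham range and the other 5 above it. The mean difference was 0.99 (exact permutation p = 0.0286), with a limma interval of -0.20 to 2.18. A06 had a narrow sham group of -4.40, -4.37, -4.63, -4.38 and -4.47, and treated samples from -4.45 to -3.06 with a median of -3.85. Of its 6 treated samples only 1 fell inside the sham range, and the SD was 0.52 in treated and 0.11 in sham samples. The difference was 0.63 (exact permutation p = 0.0173), with a limma interval of 0.03 to 1.22.

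B08, A12 and B09 were below sham in every treated sample. B08 was 2.49, 2.55 and 4.21 in sham and 1.06, 0.81, 1.90, 0.13 and 1.25 in LAD + Myriocin. One sham sample stood far above the other 2, and without it the difference was still -1.49. With all samples it was -2.06 (exact permutation p = 0.0357, limma adjusted p = 0.00412), a level 4.16-fold lower with a treated mean of 1.03 ± 0.64 (n = 5) and a sham mean of 3.09 ± 0.98 (n = 3). A12 was 8.07, 7.26 and 7.91 in sham and 6.06, 7.22, 6.84, 6.30 and 7.09 in treated samples. The closest pair was 7.26 and 7.22, and the mean difference of -1.04 had an exact permutation p of 0.0357 and a limma interval of -2.11 to 0.03. B09 read 2.61, 2.35 and 2.14 in sham and from 0.87 to 1.94 with a median of 1.65 in the 6 treated samples. Its groups were 0.20 log2 apart and its difference was -0.80 (exact permutation p = 0.0238), with a limma interval of -1.46 to -0.15. B08 and B09 shared 7 reference readings and A10 and A12 shared 7, so the values within each pair were not independent.

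Over the 21 assays, the groups did not overlap in 5 assays on the high side (23.8%) and in 3 on the low side (14.3%). The call at an unadjusted p under 0.05 held for 3 assays, A03, A06 and B03, whichever sample was left out. These were the only called assays with 5 sham samples, so holding the call depended in part on the number of samples. A06 did not pass adjustment in limma (limma adjusted p = 0.0926). The other 7 assays lost the call without at least 1 sample. For A04 and B09 this happened without any of their 3 sham samples, where 2 sham samples against 6 cannot go below an exact permutation p of 0.0714. For A10, A12, B01 and B08 it happened without any sample of either group, where the smallest exact permutation p is 0.0952 or 0.0571. A01 lost it without sham replicate 1 or 2, each at an exact permutation p of 0.0714.

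**Figure D2:**
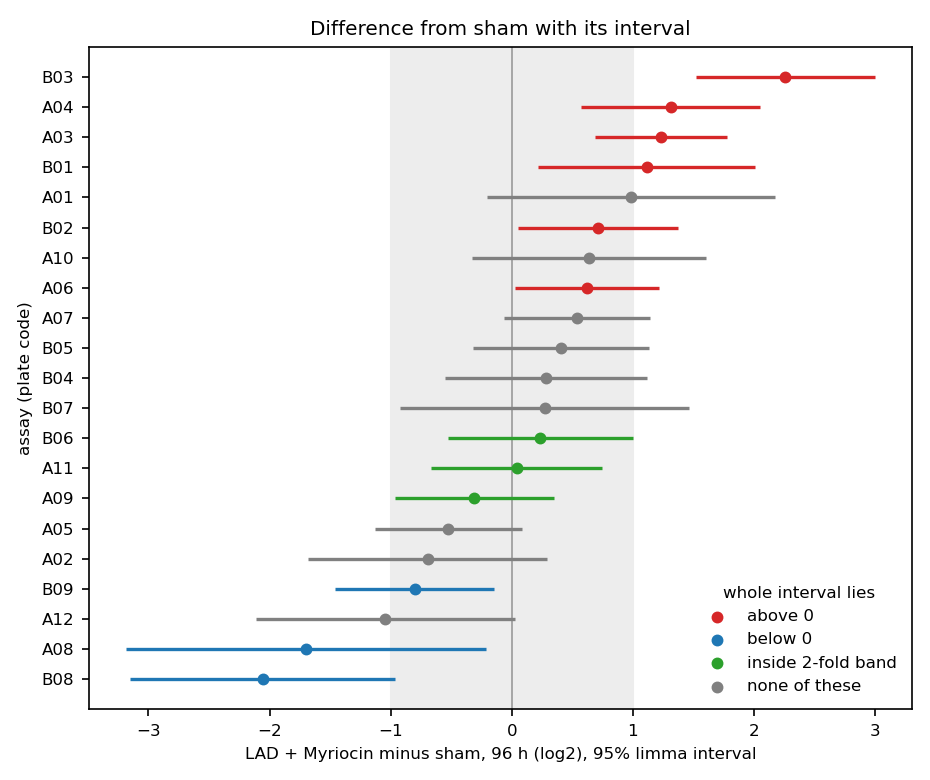
Mean difference between LAD + Myriocin and sham at 96 h (points, log2, x axis) with its 95% limma interval (lines) for the 21 assays (y axis), and a grey band for differences within 2-fold. Red intervals lie above 0 (6 assays), blue ones below 0 (3), green ones inside the band (3) and grey ones meet none of these (9).

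The assays whose interval lay within 2-fold of sham were A09, A11 and B06. A11 read 2.63, 2.12, 1.91, 1.81 and 2.84 in sham and 2.38, 2.16, 2.57, 2.42 and 2.00 in LAD + Myriocin, so all treated samples lay inside the sham range. The difference was 0.04 with an interval of -0.66 to 0.74. For A09 the sham samples were -1.04, -0.69 and -0.85, and the treated ones -1.20, -1.07, -1.22, -1.02 and -1.31. Treated samples sat in a narrow range at the lower edge of sham, with 4 of 5 below every sham sample, and the difference was -0.31 (interval -0.97 to 0.35). The unpaired test of the study's methods called A09 lower without adjustment but not with it. B06 was -1.71, -1.26 and -1.39 in sham and -1.77, -1.16, -0.92, -1.07 and -1.15 in treated samples. Of the treated values 4 lay above every sham sample and 1 below them all, and the interval of the difference, -0.53 to 1.00, only just ended at 2-fold.

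Among the remaining assays, B02, A07, B05, B04 and B07 had means above sham. B02 was tight in the 5 sham samples, from -5.54 to -5.13, and wide in the 7 treated samples, from -5.69 to -3.10 with a median of -4.44. The treated samples fell on both sides of the sham range, with 4 above it and 2 below it. The difference was 0.71 (exact permutation p = 0.159), although the limma interval, 0.05 to 1.38, lay above 0. A07 read -4.24, -4.00 and -4.18 in sham and -3.59, -2.72, -3.65, -3.96 and -4.09 after treatment, and B05 read -3.67, -2.70 and -3.25 against -2.36, -3.20, -2.67, -2.63 and -3.15. Of the 5 treated samples, 4 lay above every sham sample in A07 and 3 in B05, and the differences were 0.54 (interval -0.06 to 1.14) for A07 and 0.41 (interval -0.32 to 1.13) for B05. B04 had sham samples at -3.17, -3.01, -4.02 and -3.09 and 6 treated samples from -3.85 to -1.96 with a median of -3.21, and its interval ran from -0.55 to 1.12. In B07 the sham samples, at -5.51, -7.51 and -8.84, spread more widely than the treated ones, at -6.42, -7.33, -7.30, -6.94 and -7.09, and the interval ran from -0.92 to 1.46.

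A02 and A05 had means below sham with intervals that included 0. A02 was 10.05, 10.19 and 11.34 in sham and 10.12, 9.73, 10.37 and 9.12 in treated samples. The groups overlapped, and 3 against 4 samples cannot reach an exact permutation p below 0.0571. Its difference was -0.69 with an interval of -1.68 to 0.29. A05 read -0.59, -0.60 and -0.35 in sham and -1.51, -1.38, -0.45, -1.09 and -0.74 in treated samples, with 4 of the 5 treated samples below every sham sample. Its difference was -0.52 with an interval of -1.13 to 0.08.

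A08 split its own treated group. Sham samples read -1.91, -2.24 and -2.41. LAD + Myriocin replicates 1, 2 and 3 read -1.73, -2.45 and -2.63, near the sham values, whereas replicates 4, 5 and 6 read -4.15, -7.27 and -5.11. The mean difference was -1.70 with an exact permutation p of 0.167, and the limma interval ran from -3.18 to -0.21. With 1 sample left out the difference ran from -2.13 (exact permutation p = 0.0357, without LAD + Myriocin replicate 1) to -1.02 (exact permutation p = 0.25, without replicate 5). Reference readings moved with the split. Those of replicates 1, 2 and 3 also occurred in B05 and B06. That of replicate 5 occurred in A07, that of replicate 6 in A06 and A07, and that of replicate 4 in no other assay of the 2 groups. The 3 high samples had a reference Ct of 24.5, 23.9 and 23.0 and the 3 low ones of 28.4, 26.6 and 27.9. Sham samples at 26.1 and 26.6 stood with the high values, although their readings also occurred in A07 and in A06 and A07. The part of the reference readings in the split was not tested.

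The LAD group of the same time, given empty nanoparticles, is set beside these values as the untreated injury. It was compared with the same sham samples, so the comparisons are not independent and their values are given side by side. At an unadjusted p under 0.05 in the exact permutation test, LAD differed from sham in 12 of 21 assays (57.1%). By the same test LAD + Myriocin differed from LAD in 16 of 21 (76.2%), of which 15 were higher and 1 was lower with treatment. For LAD against sham, 4 against 3 samples could not go below an exact permutation p of 0.0571 in A02, A07, A08, B01, B06 and B07. There the limma adjusted p was 4.64e-07 for B07 (difference -4.26), 0.000156 for A08 (-3.59), 2e-05 for A02 (-2.72) and 0.00957 for B06 (-1.17). It was 0.412 for A07 and 0.760 for B01. The LAD mean was below the sham mean in 15 assays. In 8 of those the LAD + Myriocin mean was above sham, and in 7 it lay between LAD and sham. The LAD mean was above sham in 6 assays, where the LAD + Myriocin mean was higher still in 4 (A03, A04, B01 and B03) and lay between LAD and sham in 2 (A01 and B02).

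Several targets with a low LAD mean stood far higher with treatment. B07 was -11.55 ± 0.84 (n = 4) in LAD, -7.01 ± 0.37 (n = 5) in LAD + Myriocin and -7.29 ± 1.68 (n = 3) in sham. Its nearness to sham depended on the reference, whose mean Ct was 25.7 in treated and 22.2 in sham samples. On target Ct alone the treated minus sham difference of B07 was -3.19 (exact permutation p = 0.0357). A12 was 3.65 ± 1.20 (n = 6) in LAD, 6.70 ± 0.50 (n = 5) with treatment and 7.75 ± 0.43 (n = 3) in sham, which left the treated group 1.04 below sham and 3.06 above LAD. A11 was -0.29 ± 0.96 (n = 5) in LAD and 2.30 ± 0.22 against 2.26 ± 0.45 in treated and sham samples (n = 5 each). B08, the assay furthest below sham after treatment, was -1.22 ± 0.94 (n = 7) in LAD, with a difference of -4.30 from sham, and the treated mean was 2.25 above it. A10 went from -6.00 ± 1.25 (n = 5) in LAD to -3.27 ± 0.22 (n = 5) with treatment, past the sham mean of -3.91 ± 0.33 (n = 3).

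Of the 6 assays with a LAD mean above sham, A01, B02 and A03 were called higher in LAD. A01 was -0.74 ± 1.04 (n = 6) in LAD, 3.50 above sham, and -3.25 ± 0.65 (n = 6) with treatment, 0.99 above sham. It was the 1 assay called lower with treatment than in LAD (exact permutation p = 0.00433, difference -2.51). For A03 the LAD mean was 0.66 above sham and the treated mean 1.23 above it, and their difference of 0.57 had an exact permutation p of 0.0707. In B03 the LAD mean was 0.49 above sham without passing the test (exact permutation p = 0.338), and the treated mean was 1.77 above that of LAD (exact permutation p = 0.00117). For B02 the means of LAD and LAD + Myriocin were 0.94 and 0.71 above sham, and their difference of -0.23 had an exact permutation p of 0.575.

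**Figure D3:**
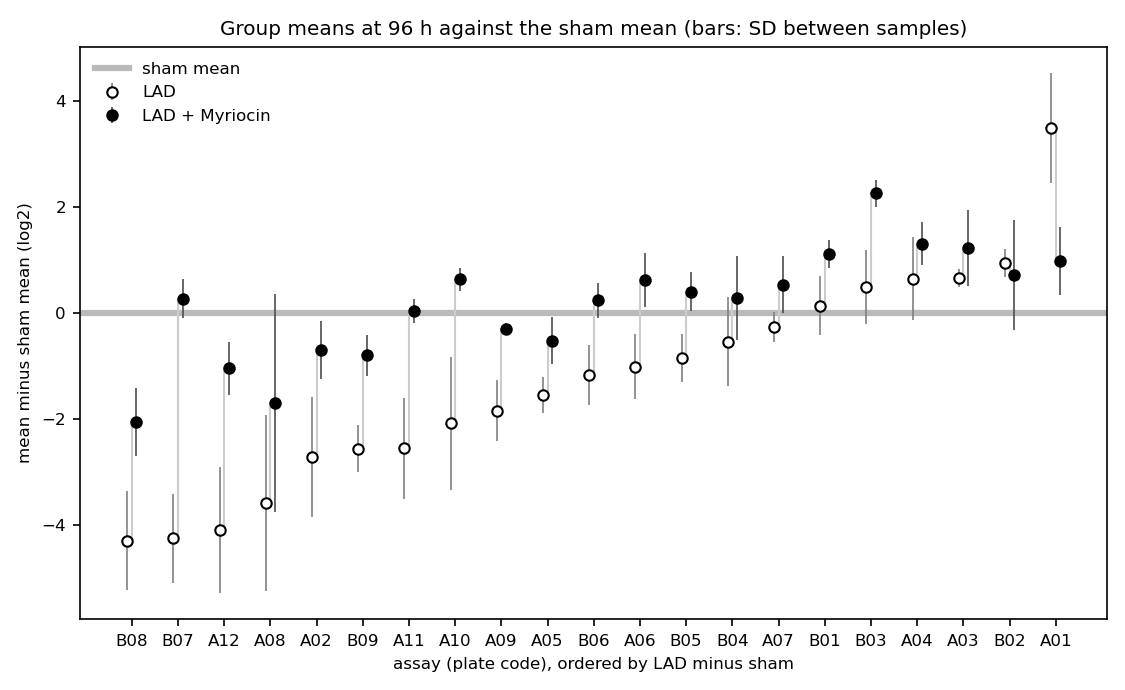
Mean relative expression at 96 h minus the sham mean (log2, y axis; the grey line at 0 is the sham mean) for LAD (open circles) and LAD + Myriocin (filled circles) in the 21 assays (x axis), with bars for the SD between samples. LAD means lie below sham in 15 assays, and the LAD + Myriocin mean lies between LAD and sham in 9.

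Since the reference Ct enters every value, it was compared by itself. Averaged per sample number it was 25.7 ± 0.617 (n = 7) in LAD + Myriocin and 25.0 ± 0.462 (n = 5) in sham, a difference of 0.691 cycles with an exact permutation p of 0.0657. A sample number need not mean the same mouse in all assays, so these averages can mix mice. Their n, SD and p therefore need not stand for independent mice. Assay by assay the reference Ct was higher, meaning less reference product, in the treated samples of 16 of 21 assays, with a median of 0.412 cycles and a range from -0.552 to 3.46. No single assay reached an unadjusted p under 0.05 in an exact permutation test of the reference Ct, the lowest being 0.0667. At an unchanged target Ct, a higher reference Ct raises the relative expression by the same amount. Where the target Ct is higher as well, the rises offset each other. The shift in reference Ct alone therefore does not give the shift in relative expression.

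On target Ct alone, with no reference, 4 of 21 assays (19.0%) passed an unadjusted exact permutation test, and A03 was the 1 assay called on both scales. The median difference moved from 0.28 to -0.23, and the direction was kept in 16 of 21 assays and turned in A01, A07, A11, B04 and B07. On this log2 scale the called differences were 0.78 for A03, 0.83 for B02, -2.22 for A05 and -3.19 for B07. Those of B03, A06 and A04 were 1.09, 0.74 and 0.31, and that of B08 was -1.504, none of them past the test. B07 and A01 depended most on the reference. For B07 the reference Ct was 3.46 cycles higher in treated samples, and 2 of its treated target readings lay above a Ct of 35. For A01 the reference Ct was 2.65 cycles higher, and its difference was 0.99 with the reference and -1.66 without it. The share of these shifts that came from the amount of input RNA was not tested.

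**Figure D4:**
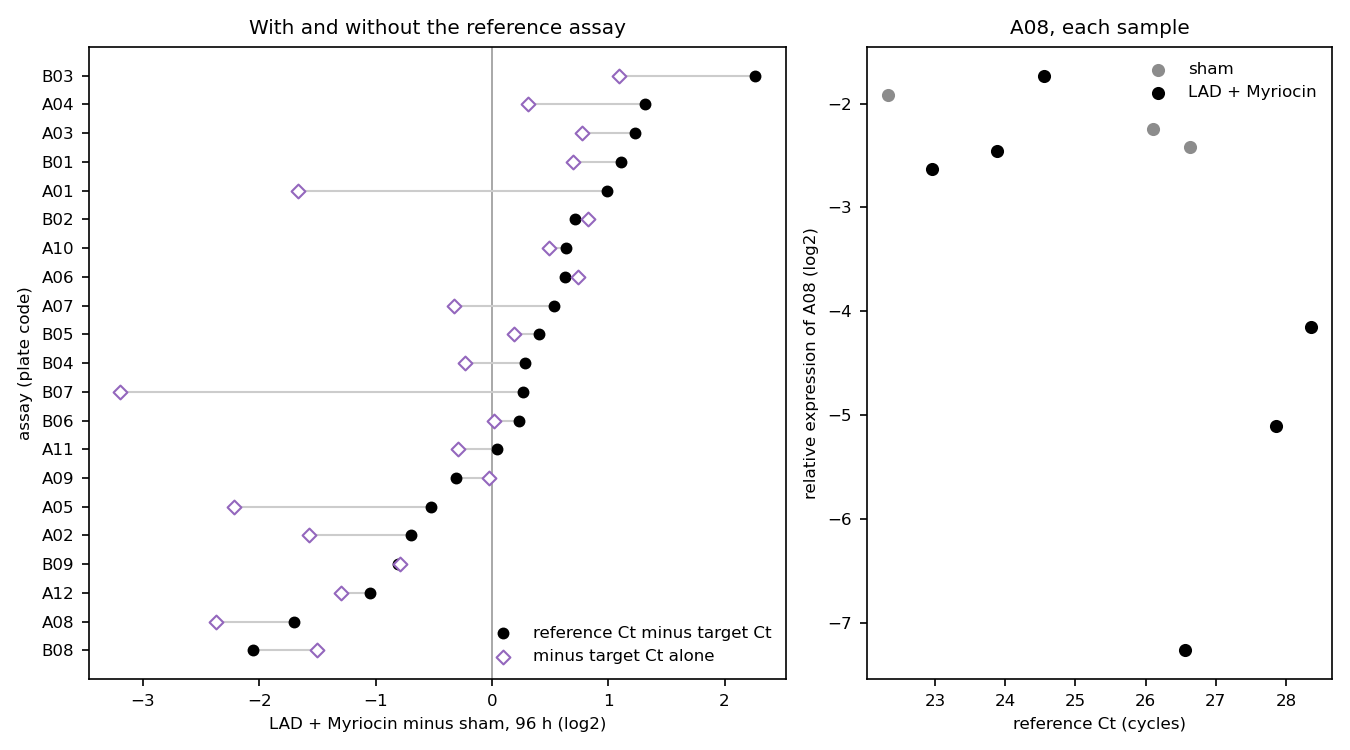
Left, LAD + Myriocin minus sham at 96 h (log2, x axis) for the 21 assays (y axis), with the reference Ct (black circles) and from target Ct alone (open purple diamonds); the widest gaps are those of B07 (0.27 and -3.19) and A01 (0.99 and -1.66). Right, relative expression of A08 (log2, y axis) against the reference Ct of the same reading (cycles, x axis) for 6 LAD + Myriocin and 3 sham samples; 3 treated samples lie near sham and 3 lie between -7.27 and -4.15.

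The same contrast at 24 h, made with other samples of both groups, passed an unadjusted exact permutation test in 3 of 21 assays (14.3%), with a median difference of -0.19. B08 was already lower there, by 1.63 on the log2 scale (exact permutation p = 0.0238), at 1.80 ± 0.93 in treated and 3.43 ± 0.05 in sham samples. B02 was higher by 0.61 (exact permutation p = 0.0357) and B07 by 1.14 (exact permutation p = 0.00952). In 3 assays, A02, B05 and B06, the number of samples at 24 h could not reach an exact permutation p under 0.05. The limma adjusted p at 24 h was 0.00892 for A02 (difference -1.96) and 0.0399 for B08. It was 0.392 for B02 and 0.181 for B07.

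The change of the contrast between the times was tested in limma as the difference at 96 h minus that at 24 h. It passed adjustment in 1 of 21 assays (4.76%), A03, at 1.47 ± 0.39 (SE) with an adjusted p of 0.0146 and an interval of 0.67 to 2.27. A03 went from 0.24 below sham at 24 h (-4.84 ± 0.39 against -4.61 ± 0.18) to 1.23 above it at 96 h. On target Ct alone the change of A03 was 0.70 with a limma adjusted p of 0.757, and the 1 change called was another, that of A05 (-5.60, limma adjusted p = 0.000165). For B03 the change was 1.62 with a limma adjusted p of 0.0893, and the sham samples of that assay were themselves 1.00 lower at 96 h than at 24 h. For A02 the contrast was -1.96 at 24 h and -0.69 at 96 h, and its change did not pass adjustment. The contrast of B08 was -1.63 at 24 h and -2.06 at 96 h. The interval of its change, from -1.95 to 1.10, included 0 and reached past 2-fold on both sides. A change was therefore neither shown nor excluded.

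**Figure D5:**
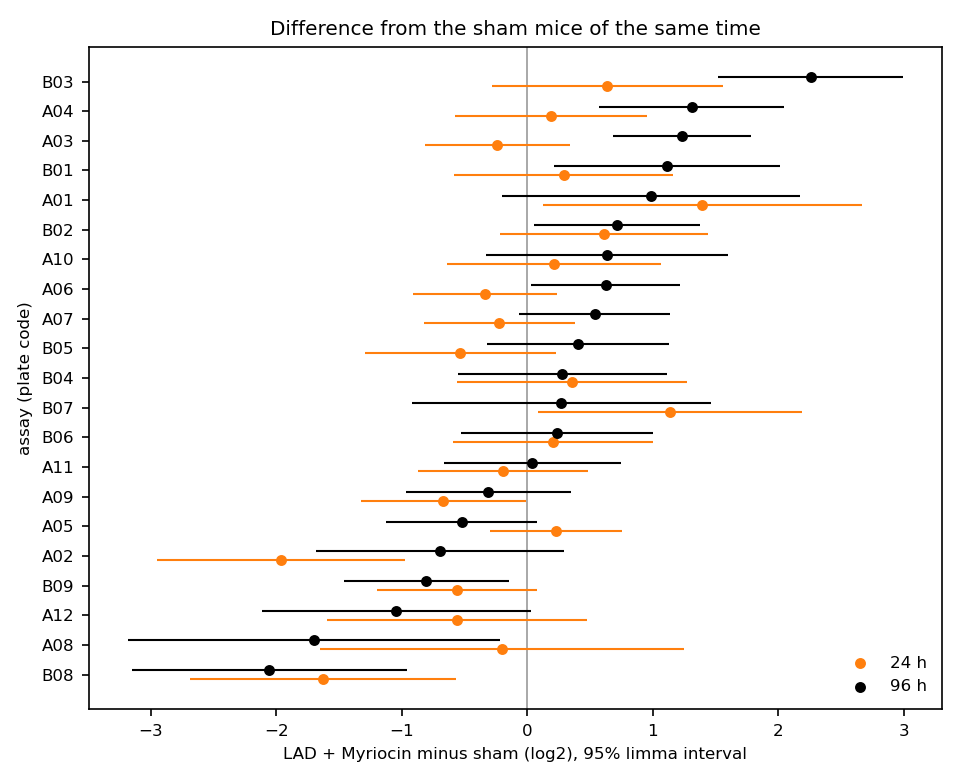
LAD + Myriocin minus sham (log2, x axis) with 95% limma intervals at 24 h (orange) and 96 h (black) for the 21 assays (y axis). A03 moves from -0.24 to 1.23, the 1 change past adjustment, and B08 lies below 0 at both times.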

How the data were processed

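RNA of mouse heart was reverse transcribed and amplified by SYBR Green qPCR by the authors, who deposited the Ct of each target and, directly below it, that of the reference assay for 38 samples. A second deposited table holds the authors' own ratios between groups and was not used. Relative expression was computed as reference Ct minus target Ct. Empty cells were left empty, and no column of values was left unused. Groups came from the sample labels. The target assays and their plate codes were taken as given, and which values to compare was chosen with earlier results of these data known.

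Differences of means were tested with an exact two-sided permutation test (2 times the smaller tail) in SciPy 1.17.1 on NumPy 2.4.6, with Benjamini-Hochberg adjustment over the 21 assays. Intervals of 95% and the change between times came from limma 3.58.1 in R 4.3.3, fitted to all 38 samples in 6 groups. Both recovered shifts put into simulated data. Those shifts were larger than any difference between LAD + Myriocin and sham at 96 h, so smaller differences were not covered by this check. The simulated spread was the same in all assays and groups, with no shared reference readings. In the data the SD of LAD + Myriocin at 96 h ran from 0.12 (A09) to 2.06 (A08). Unequal spread and shared readings were therefore not covered either. All 21 assays are described, so no rule picked among them. The numbers of the samples were checked for pairing: over the 65 pairs of same-numbered values the deviations from the group means correlated at 0.121, and between -0.0122 and 0.309 within a number, so the numbers were not taken as pairs. Labels do not say whether the samples of a group came from 1 day or several. The precision of a difference was limited by 3 to 7 samples a group.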

Additional observations from a re-analysis of the deposited data

Results flagged for a closer look

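In B04, sham replicate 3 stood apart from the other 3 sham samples at 96 h, at -4.02 against -3.17 to -3.01, with a gap to its nearest neighbour of 0.842 of the range of the group. In B06, LAD + Myriocin replicate 2 lay at -1.77 against -1.16 to -0.92 for the others, a gap of 0.720 of the range. Of the 28 groups of 4 to 7 samples examined, these 2 stood apart, where chance gives about 1 in 20, or 1.4 groups. For A03 the difference between LAD + Myriocin and sham changed between the times, by 1.47 on the log2 scale (limma adjusted p = 0.0146).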

How the results depend on the processing

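The 10 calls of the unadjusted exact permutation test (7 higher, 3 lower) became 0 after Benjamini-Hochberg adjustment (0 higher, 0 lower), and 4 in limma with adjustment (3 higher, 1 lower). The unpaired test of the study's methods gave 11 calls, with A09 gained, and after adjustment 2 (2 higher, 0 lower). Target Ct alone gave 4 (2 higher, 2 lower). The mean target Ct as the reference gave 2 (2 higher, 0 lower), A03 and B02, and B03 was lost (exact permutation p = 0.0606). The mean reference Ct of a sample number gave 3 (3 higher, 0 lower), A03, B02 and B03. B02, which is not among the 10 calls, had an exact permutation p of 0.0025 in both. Both averages were taken per sample number, which need not mean the same mouse in all assays. The difference of medians gave 2 (2 higher, 0 lower). Pooling the sham samples of both times gave 11 (6 higher, 5 lower), with A04 and B01 lost and A02, A07 and A08 gained. limma without adjustment gave 9, and the linear scale gave 10. The cause of these shifts was not tested. With the replicate block, a paired fit on the sample numbers, 9 assays were called (7 higher, 2 lower), with A06 and B09 lost and B02 gained, and A02 moved to 0.12. Leaving out 1 sample number in all assays at once gave 4 to 8 calls (3 to 6 higher, 0 to 3 lower). Fewer samples made a p under 0.05 unreachable in part of the assays. Since a number need not mean the same mouse in all assays, these counts need not show the removal of 1 mouse. The count was 4 without sham replicate 1 or 2, and 6 without sham replicate 3 or LAD + Myriocin replicate 4 or 6.

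Some directions turned. On target Ct alone the difference was -1.66 for A01, -0.33 for A07, -0.29 for A11, -0.23 for B04 and -3.19 for B07. With the mean target Ct as the reference it was -1.21 for A01, -0.24 for A07, 0.0654 for A09, -0.12 for B06 and -2.50 for B07. With the mean reference Ct of a sample number it was -1.10 for A01, 0.70 for A09 and -2.23 for B07. The linear scale gave -0.0029 for A11 and -0.30 for B07, and pooled sham samples gave 0.0419 for A05, -0.29 for A11, -0.0873 for B04 and -0.18 for B07. The difference of medians was -0.081 for B04. Leaving out 1 sample moved A11 between -0.0728 and 0.185 and B07 between -0.51 and 1.16. On target Ct alone, 2 intervals lay above 0, 0 within 2-fold of sham and 16 met no class. With the replicate block 9 assays changed class, with A09 and B06 leaving that within 2-fold and A02 entering it. The reference Ct difference ran from 0.538 to 0.820 cycles with 1 sample left out and passed an exact permutation test without LAD + Myriocin replicate 4 (p = 0.0476) or 6 (p = 0.0433). It was 1.02 over distinct readings, an alternative chosen after seeing the data. Between the times, limma called 4 assays without adjustment, and 1 to 2 with a sample left out. It called 2, A03 and B03, without sham replicate 4 of 96 h. On target Ct alone, LAD differed from sham in 5 assays in place of 12, and LAD + Myriocin from LAD in 7 in place of 16. Fewer than 8 samples a group, 1 reference assay and readings shared between assays limit all of these values.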

Other observations

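Where both targets of a pair were read beside the same reference reading, the difference of their target Ct does not contain the reference. The pairs were chosen after the shared readings were seen, and the values are given with no test. Only readings under the same sample number in both assays were used. This left out the reading shared by A10 replicate 3 and A12 replicate 4 of LAD + Myriocin. For A10 against A12, the Ct of A12 minus that of A10 was -9.16, -10.42 and -10.63 in LAD + Myriocin and -12.07, -11.45 and -11.45 in sham. The treated samples were all closer to 0, and A10 was 1.59 higher relative to A12 on the log2 scale than in sham. For B08 against B09, the Ct of B09 minus that of B08 was -0.68, -0.66, 0.10, -1.43 and -0.69 in LAD + Myriocin and 0.14 and 0.41 in sham. All treated samples were below both sham samples, and the mean difference between the groups was -0.95. For B05 against B06 the same quantity ran from -2.04 to -0.60 in 5 treated and from -1.96 to -1.45 in 3 sham samples, and the ranges overlapped.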
